A study of Mus musculus with 24 samples.

Results

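The Zfp genes of mouse chromosomes 7, 13 and 17 were followed in CD4-positive T cells that lack or keep Trim28. They were taken as every gene whose name on the array is Zfp followed by digits alone and whose annotated position lies on one of those 3 chromosomes. The rule uses names and positions and no measured value. It found 93 genes on 168 probes among 27962 genes on the array, with 59 genes on chromosome 7, 15 on chromosome 13 and 19 on chromosome 17. Of these, 87 had a probe that the scanner software marked well above background on 3 or more arrays of some group, and these were tested among 16647 genes (55, 14 and 18 on the 3 chromosomes). Zfp109, Zfp128, Zfp184, Zfp371, Zfp57 and Zfp694 had no such probe and were not tested. All 93 names were found in RefSeq, where 9 carry a newer symbol, among them Zfp119a for Zfp119, Zscan12 for Zfp96, Zkscan3 for Zfp306 and Zbtb45 for Zfp499.

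Trim28, also called KAP1, is a corepressor without DNA binding of its own. KRAB domain zinc finger proteins bind DNA through their C2H2 fingers and recruit Trim28, which brings the histone methyltransferase Setdb1, HP1 proteins and H3K9 trimethylation to the bound site. KRAB zinc finger genes arose by tandem duplication and lie in clusters, and Trim28 and H3K9 trimethylation are found on such clusters themselves in mouse and human cells. The name Zfp is wider than the KRAB class. Zfp36, known as tristetraprolin, is a CCCH protein that binds AU-rich RNA, Zfp143 activates transcription, and Zfp598 is a ubiquitin ligase that senses collided ribosomes. No protein sequence was used here, so the KRAB genes were not separated from the others.

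The arrays were 1-colour Agilent arrays of RNA from female C57BL/6 mice aged 6 or 7 weeks, with 4 arrays in each of 6 groups. Mice with a T cell-specific conditional Trim28 knockout (CKO) were set against age-matched wild-type mice (WT). Naive cells, sorted as CD4+CD62+CD25-, were unstimulated or stimulated for 13 h on plates coated with anti-CD3 plus anti-CD28, and regulatory T cells (Treg) were sorted as CD4+CD62+CD25+. The Cre line is not named in the labels, and CKO Treg arrays carry the treatment tag TCR-stimulated while WT Treg arrays carry unstimulated. Replicate 1 of CKO Treg is labelled 7 weeks and replicate 1 of WT Treg 6 weeks. The labels do not state whether each array of a group had its own animal, and the p-values cover the array-to-array spread alone, which may be technical.

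Values are log2 signal relative to the 75th percentile of the array, so a value of 0 is a signal at that percentile. Trim28 itself was at 0.58 to 1.29 in CKO and 2.31 to 2.57 in WT unstimulated cells, 0.53 to 1.23 in CKO and 3.40 to 3.86 in WT stimulated cells, and 0.20 to 0.67 in CKO and 1.81 to 2.24 in WT Treg, so no library went against its label. Treg arrays were dimmer: their 75th percentile signal was 31.4 to 116 on CKO and 53.9 to 200.2 on WT arrays, against 154 to 372 on naive arrays, and 64 to 79 members in CKO and 67 to 83 in WT Treg stood above background per array, against 78 to 86 in naive cells. Markers of B cells were higher in CKO naive cells, with a median log2 difference of 1.15 unstimulated (1 of 9 genes called) and 1.31 stimulated (3 of 9), against 0.10 in Treg (0 of 9). Their summed level was 14.9 to 50.5 in CKO and 5.88 to 22.8 in WT unstimulated cells, 1.38 to 5.53 in CKO and 0.43 to 2.03 in WT stimulated cells, and 4.20 to 10.3 in CKO and 3.65 to 7.62 in WT Treg, on the linear scale. Blk and Ebf1 were above background on no array in stimulated cells or Treg of either genotype. Myeloid and dendritic markers differed by a median of 0.33 unstimulated, 0.81 stimulated and 0.06 in Treg, with 0 of 8 called in each. Their summed level was 32.0 to 288 in CKO and 33.8 to 123 in WT unstimulated cells. It was 13.5 to 135 and 13.4 to 24.8 in stimulated cells, and 15.2 to 119 and 12.9 to 85.9 in Treg. Erythroid and platelet markers summed to 0.54 to 54.9 in CKO and 1.00 to 53.9 in WT unstimulated cells. Of 7 genes of CD8, NK and unconventional T cells, 2 rose and 1 fell in CKO unstimulated cells, and 1 rose in stimulated cells and in Treg. Of 4 Treg markers, Il2ra, Ctla4 and Foxp3 were called higher in CKO unstimulated cells, with a median of 1.03 over the 4, and Foxp3 in stimulated cells. Of 6 T cell markers, Cd3g and Cd3e were called lower in CKO unstimulated cells. The part of these cells in the results below was not tested, and in bulk RNA fewer cells of a type and less RNA per cell cannot be told apart.

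Promoters are shown first for 3 neighbours of the chromosome 17 cluster, since Zfp53 and Zfp52 rose in CKO cells and Zfp54 was not called. RefSeq (GRCm38.p6) held a promoter window of 300 bases, most of it upstream of the annotated start, for 83 of the 93 members. Capitals mark the 10 bases that all 3 share without a gap, the only such run of 8 or more. Zfp53 lies at chr17:21488738-21489037, Zfp52 at chr17:21535289-21535588 and Zfp54 at chr17:21422977-21423276, all on the plus strand.
Zfp53: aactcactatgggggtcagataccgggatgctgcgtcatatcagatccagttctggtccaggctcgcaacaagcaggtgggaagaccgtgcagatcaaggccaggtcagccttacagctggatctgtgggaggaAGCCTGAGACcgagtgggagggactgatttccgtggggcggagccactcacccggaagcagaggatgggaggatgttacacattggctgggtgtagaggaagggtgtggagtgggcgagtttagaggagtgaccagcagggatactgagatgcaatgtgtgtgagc
Zfp52: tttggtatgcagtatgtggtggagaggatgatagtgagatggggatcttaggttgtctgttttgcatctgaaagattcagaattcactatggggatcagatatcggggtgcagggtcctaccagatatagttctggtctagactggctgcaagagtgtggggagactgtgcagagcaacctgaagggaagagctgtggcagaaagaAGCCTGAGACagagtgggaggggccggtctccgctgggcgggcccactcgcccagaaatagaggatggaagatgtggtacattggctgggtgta
Zfp54: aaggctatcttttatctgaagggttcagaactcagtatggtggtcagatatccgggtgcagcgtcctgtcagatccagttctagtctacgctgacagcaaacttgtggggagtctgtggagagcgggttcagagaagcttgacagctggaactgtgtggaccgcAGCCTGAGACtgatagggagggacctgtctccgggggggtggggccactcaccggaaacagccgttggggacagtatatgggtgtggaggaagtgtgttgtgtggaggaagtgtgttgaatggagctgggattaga
In a gapped alignment Zfp53 and Zfp54 shared 200 of 300 bases (66.7%), Zfp52 and Zfp54 shared 59.3%, and Zfp52 and Zfp53 shared 57.0%. The shared run stands at a different place in each window, so the windows are offset and the bases that can align differ by pair. These shares of 300 therefore do not rank which promoters are most alike. Zfp51 had no promoter in this comparison.

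Zfp458 on chromosome 13 and Zfp110 on chromosome 7 rose in CKO cells in all 3 states. Their promoters are shown because both hold the letters that ETS factors bind. Zfp53 and Zfp119 rose in all 3 states too, and neither the Zfp53 window above nor the Zfp119 window holds these letters. Zfp458 lies at chr13:67268945-67269244 on the minus strand and Zfp110 at chr7:12834511-12834810 on the plus strand, and capitals mark CCGGAAGT read on the other strand.
Zfp458: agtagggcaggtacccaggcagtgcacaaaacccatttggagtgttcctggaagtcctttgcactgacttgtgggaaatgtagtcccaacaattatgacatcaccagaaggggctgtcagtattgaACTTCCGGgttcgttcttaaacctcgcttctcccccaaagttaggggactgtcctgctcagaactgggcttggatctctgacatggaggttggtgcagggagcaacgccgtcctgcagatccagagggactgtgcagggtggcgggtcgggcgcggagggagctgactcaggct
Zfp110: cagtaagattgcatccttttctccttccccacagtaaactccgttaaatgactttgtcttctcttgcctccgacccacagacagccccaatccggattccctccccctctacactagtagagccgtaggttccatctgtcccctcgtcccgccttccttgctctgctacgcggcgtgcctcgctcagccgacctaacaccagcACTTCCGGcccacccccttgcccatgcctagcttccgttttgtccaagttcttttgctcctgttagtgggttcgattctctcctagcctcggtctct
Letter strings were searched on both strands, and none contains another. CCGGAAGT is the core bound by ETS factors. GCATGCGC is a part of the NRF1 motif. AAGATGGCG is the core bound by YY1. TGACGTCA is the CRE, bound by CREB. TATAAA is the TATA box. The ETS letters stood in the promoters of 13 members (15.7%), against 4.31% of 27025 genes with a promoter, and a match describes letters, not binding. They stood in 5 of 17 members called higher in CKO cells in any state (29.4%), in 1 of 8 called lower (12.5%) and in 6 of 53 never called (11.3%). The NRF1 letters stood in 10.8% of members and 3.05% of all genes, the CRE letters in 4.82% and 2.03%, the YY1 letters in 1.2% and 1.64%, and the TATA letters in 8.43% and 15.7%. Members had a median of 14 CpG in 300 bases, against 8 over all genes. Some genes, 15 members among them, had more than 1 window. For these the window with most CpG was taken, and letters counted if any window held them.

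In unstimulated naive cells 10 of 87 members were higher in CKO than in WT and 7 were lower, at an adjusted p under 0.05 in limma. The background was 7.85% of all genes higher and 10.8% lower, and members stood at 11.5% and 8.05%. The median member differed by 0.01 log2 units, as did the median gene. Zfp458, Zfp53, Zfp473, Zfp52, Zfp119, Zfp13, Zfp110, Zfp169, Zfp715 and Zfp101 rose, and Zfp346, Zfp74, Zfp82, Zfp235, Zfp367, Zfp566 and Zfp499 fell. Differences ran to 1.63 ± 0.25 (log2, SE) for Zfp458, while the largest fall was -0.86 ± 0.24 for Zfp346, which encodes a protein that binds double-stranded RNA.

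In stimulated naive cells 9 of 87 members were higher in CKO cells and 2 were lower, against 11.7% and 12.3% of all genes. Scaled on probes above background on all arrays, 18 were higher and 2 lower, with 4022 of all 16647 genes called in either direction. The members' median was 0.07, against -0.05 over all genes. Zfp119, Zfp53, Zfp473, Zfp169, Zfp458, Zfp579, Zfp329, Zfp110 and Zfp306 rose, by 0.53 to 1.13. The 2 that fell were Zfp367 and Zfp296.

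In Treg 11 of 87 members were higher in CKO cells and 1 was lower, against 2.46% and 1.81% of all genes. The members' median was 0.22, against 0.01 over all genes and 0.04 over the 122 tested Zfp genes of other chromosomes, of which 1 rose and 1 fell. The same genes elsewhere gave 10 higher and 11 lower in unstimulated and 13 and 9 in stimulated cells. The risers in Treg were Zfp458, Zfp52, Zfp53, Zfp94, Zfp119, Zfp96, Zfp97, Zfp110, Zfp61, Zfp51 and Zfp606, and Zfp446 was called lower. Zfp446 was above background on 1 of 4 CKO and 3 of 4 WT Treg arrays, its difference was -0.02 with signals raised to a common floor, and its call was lost in 6 of 8 fits that left out 1 array. The groups of Zfp606 overlapped, and with slide as a block its adjusted p was 0.0524 in limma. The difference between sets of genes was not tested. Zfp36, Zfp143, Zfp598 and Zfp260 were not called between genotypes in any state on any kept probe. Zfp318 was not called on its brightest probe, at 0.20 in unstimulated cells, while another of its probes gave 1.22 there (adjusted p = 0.0122 over all kept probes in limma).

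**Figure D1:**
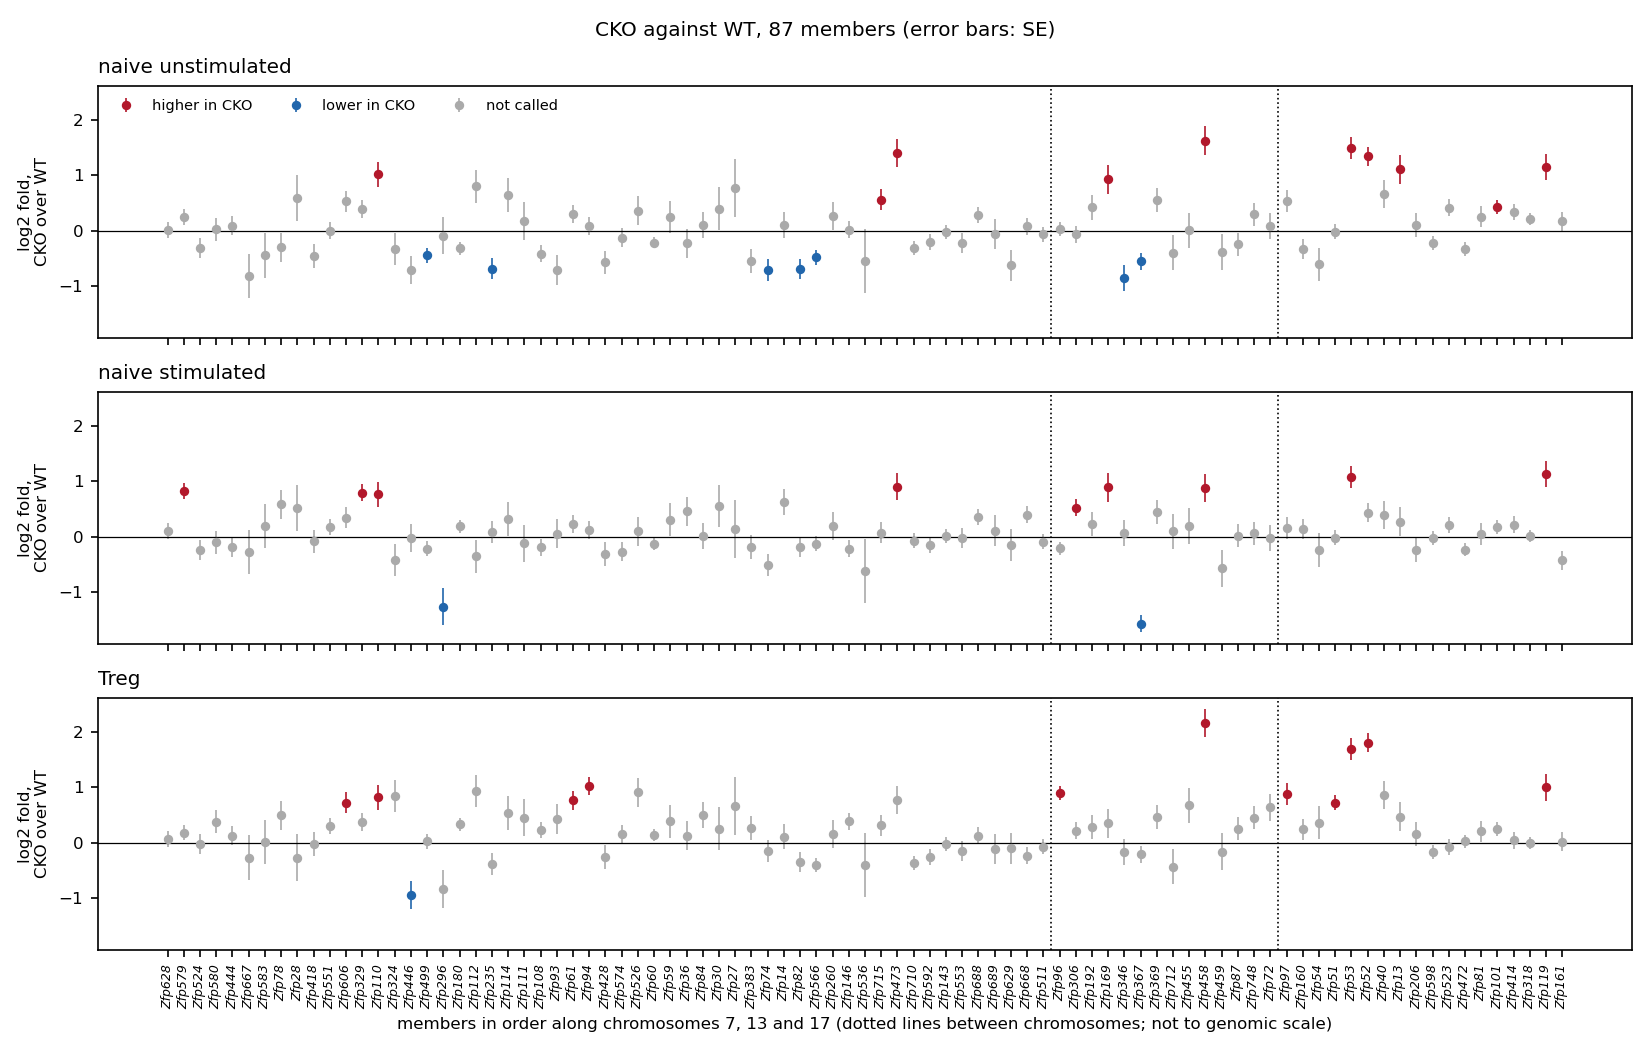
Log2 fold change, CKO over WT, of 87 members in naive unstimulated cells (top), naive stimulated cells (middle) and Treg (bottom), in their order along chromosomes 7, 13 and 17 and not to genomic scale. Points are fitted differences with SE. Red points are higher and blue points lower in CKO at an adjusted p under 0.05, and no chromosome 17 member is blue in any panel on the probes plotted.

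Across states, on the brightest probe of each gene, 4 members rose in CKO cells in all 3 comparisons (Zfp110, Zfp119, Zfp458 and Zfp53). Another 3 rose in 2 (Zfp169, Zfp473 and Zfp52) and 12 rose in 1. On its further kept probe Zfp119 gave -0.13 in stimulated cells and was not called there. Of the fallers, Zfp367 fell in 2 comparisons and 8 members in 1. Over the 87 members the 3 sets of differences went together to a Pearson r of 0.71 for Treg and unstimulated, 0.63 for stimulated and unstimulated and 0.49 for Treg and stimulated cells, a description over genes that share arrays within each comparison. In Treg and unstimulated cells 65 of 87 had the same sign. The same counts and correlations over all genes are not given here. Whether this likeness between states is particular to the members was not tested.

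**Figure D2:**
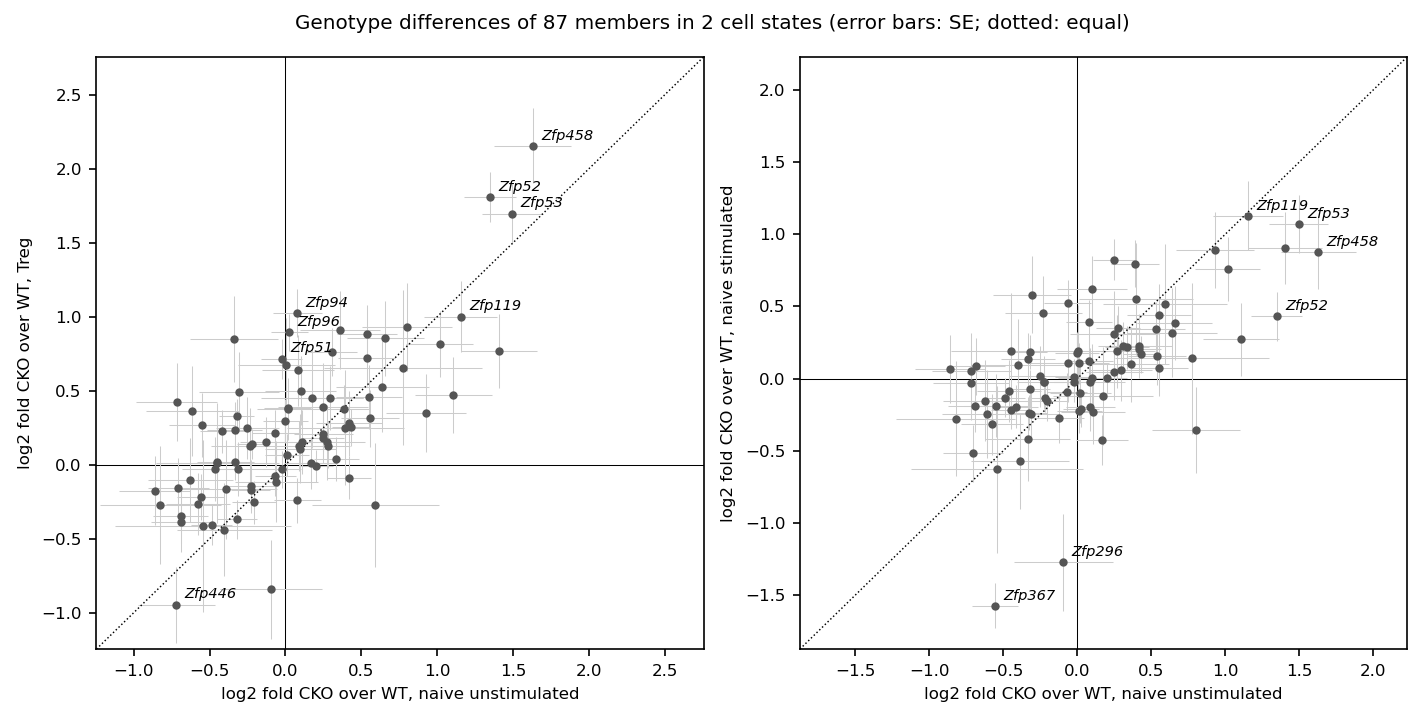
CKO over WT log2 fold change of 87 members in Treg (left) and stimulated naive cells (right) on the y axes, against unstimulated naive cells on the x axes, with SE bars and a dotted line where both are equal. Zfp458, Zfp52 and Zfp53 lie far up in Treg and unstimulated cells, and Zfp367 and Zfp296 lie low in stimulated cells.

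Zfp53 lies at chr17:19688123-19688182 on the array's annotation, whose build is not given in the sources used here. It rose in all 3 states. Unstimulated cells had 3.10, 2.91, 3.21 and 3.21 in CKO and 1.73, 1.67, 1.88 and 1.16 in WT. Stimulated cells had 2.29, 2.07, 2.24 and 1.91 in CKO and 1.70, 0.92, 0.99 and 0.61 in WT. Treg had 3.90, 3.53, 3.81 and 3.91 in CKO and 1.83, 1.83, 2.48 and 2.23 in WT. In each state every CKO array lay above every WT array. A further probe of the gene gave 1.45, 1.04 and 1.79 in the 3 states. The differences were 1.50 ± 0.20 (2.82-fold, adjusted p = 4.67e-05 in limma), 1.07 ± 0.20 (2.10-fold, adjusted p = 0.000949) and 1.70 ± 0.20 (3.24-fold, adjusted p = 9.43e-06), SE with n = 4 arrays per group.

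Zfp52, the next gene along, at chr17:19743052-19743111, separated the states. It had 4.57, 4.38, 4.70 and 4.61 in CKO and 3.23, 3.31, 3.43 and 2.91 in WT unstimulated cells, and 5.37, 5.03, 5.20 and 5.28 in CKO and 3.41, 3.35, 3.61 and 3.27 in WT Treg. Stimulated cells had 4.77, 4.70, 4.68 and 4.85 in CKO and 4.95, 4.18, 4.31 and 3.83 in WT. The groups did not overlap in unstimulated cells and Treg and overlapped in stimulated cells. CKO exceeded WT by 1.35 ± 0.17 unstimulated (adjusted p = 2.18e-05 in limma) and 1.81 ± 0.17 in Treg (adjusted p = 2.79e-07), and by 0.43 ± 0.17 stimulated (adjusted p = 0.069). The difference between the stimulated and unstimulated effects was -0.92 ± 0.24 (adjusted p = 0.0376 in limma). WT cells rose by 1.10 ± 0.17 on stimulation, and CKO cells differed by 0.18 ± 0.17. The interaction lost its call when any 1 of 12 of the 16 naive arrays was left out.

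Zfp51, on the same stretch of chromosome 17, was called higher in CKO Treg and not in naive cells. Treg had 2.13, 1.81, 1.95 and 1.96 in CKO and 1.24, 1.08, 1.37 and 1.29 in WT, a difference of 0.72 ± 0.14 (adjusted p = 0.00194 in limma). The unstimulated difference was -0.02 ± 0.14 and the stimulated one -0.02 ± 0.14. The Treg effect exceeded the unstimulated one by 0.74 ± 0.19, which missed the threshold (adjusted p = 0.0981 in limma). The other kept probe of Zfp51, above background on all arrays, gave 0.14 in Treg (adjusted p = 0.71 over all kept probes in limma) and -0.53 in unstimulated cells (adjusted p = 0.00554), so the Treg call rests on 1 of its 2 probes. Zfp54 and Zfp160, also in this cluster of 5, were not called in any state. Zfp119, farther along chromosome 17, had -0.83, -0.74, -0.47 and -1.13 in CKO and -1.40, -2.44, -2.07 and -1.89 in WT unstimulated cells. It rose by 1.15 ± 0.24 unstimulated, 1.13 ± 0.24 stimulated and 1.00 ± 0.24 in Treg. The probe behind these values was matched to no RefSeq transcript. A further kept probe, matched to Zfp119a and above background on all arrays, gave 0.83 in unstimulated cells and 0.81 in Treg. In stimulated cells that further probe gave -0.13 (adjusted p = 0.711 over all kept probes in limma), so the stimulated rise rests on 1 of the 2 probes.

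Zfp458, in the chromosome 13 cluster, had the largest rise in unstimulated cells and Treg. It had -1.64, -1.63, -1.62 and -2.35 in CKO and -4.36, -3.52, -3.77 and -4.21 in WT Treg, and -3.09, -2.68, -2.63 and -3.31 in CKO and -4.28, -4.25, -4.88 and -4.82 in WT unstimulated cells. The differences were 2.16 ± 0.25 (adjusted p = 8.38e-06 in limma) and 1.63 ± 0.25 (adjusted p = 0.000248), and 0.87 ± 0.25 in stimulated cells (adjusted p = 0.0182). Groups did not overlap in any state. WT signal was well above background on 3 of 4 arrays in unstimulated cells and in Treg, and with all signals raised to a common floor the differences were 0.19 in unstimulated and 0.0867 in stimulated cells, both no longer called, and 1.23 in Treg, still called. A further kept probe of the gene gave 1.24, 1.03 and 1.33 in unstimulated cells, stimulated cells and Treg. This further probe was dim in WT, above background on 2, 1 and 1 of 4 arrays in these states. Its annotated position overlaps that of the first probe.

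Zfp110, also called Nrif, binds the p75 neurotrophin receptor. It had 2.59, 2.34, 2.53 and 2.32 in CKO and 1.50, 1.08, 1.11 and 2.02 in WT unstimulated cells, and rose by 1.02 ± 0.22 there, 0.76 ± 0.22 in stimulated cells and 0.82 ± 0.22 in Treg. One further probe of Zfp369, a close paralog, matches accessions of Zfp110 too, while the probe that stands for Zfp110 matches Zfp110 alone. That shared probe rose in all 3 states, by 0.61, 0.56 and 0.68 (adjusted p = 0.0216, 0.0278 and 0.0304 over all kept probes in limma), while the brightest probe of Zfp369, which matches it alone, was not called in any. Zfp473, whose human counterpart takes part in histone pre-mRNA processing, rose by 1.41 ± 0.25 in unstimulated (adjusted p = 0.000948 in limma) and 0.90 ± 0.25 in stimulated cells. It differed by 0.77 ± 0.25 in Treg (adjusted p = 0.099 in limma). That probe was matched to no RefSeq transcript. A further kept probe, matched to Zfp473, gave 0.61 in unstimulated and 0.51 in stimulated cells, neither called. In Treg this further probe gave 1.55 (adjusted p = 0.0479 over all kept probes in limma). It was dim there, above background on 1 of 4 CKO and 0 of 4 WT arrays. The pattern of calls across states thus depends on the probe. Zfp169 rose by 0.93 ± 0.26 and 0.89 ± 0.26 in the 2 naive states, and differed by 0.35 ± 0.26 in Treg. Its other kept probe gave 0.35 in unstimulated cells, not called, and 0.49 in stimulated cells (adjusted p = 0.0293 over all kept probes in limma). The call for Zfp110 in Treg was lost in 7 of 8 fits that left out 1 array.

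**Figure D3:**
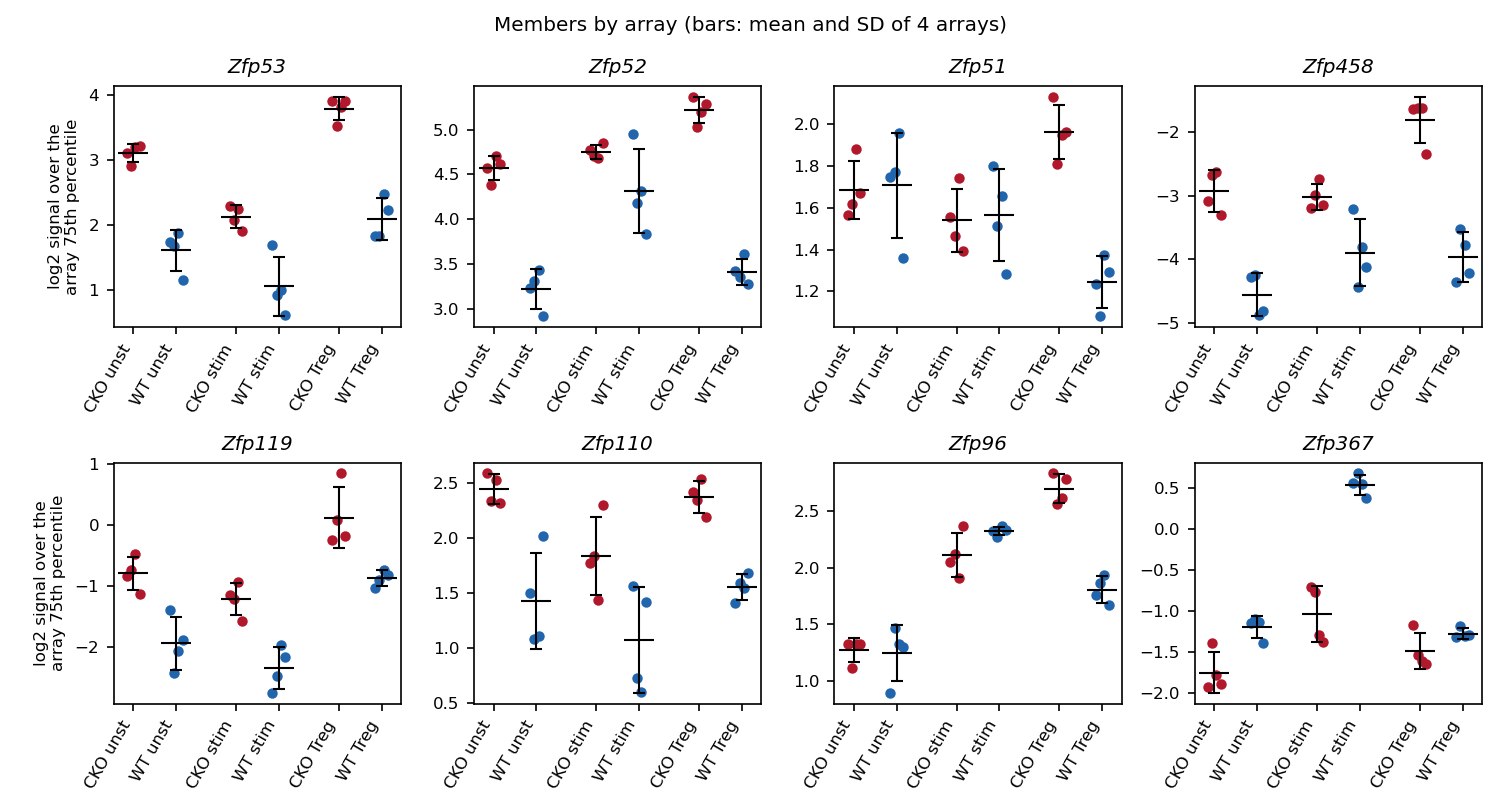
Log2 signal over the array's 75th percentile of 8 members on every array, with CKO (red) left of WT (blue) in unstimulated naive cells, stimulated naive cells and Treg, bars giving the mean and SD of 4 arrays. Zfp53 and Zfp119 show CKO above WT without overlap in each state, Zfp96 and Zfp51 only in Treg, and Zfp367 shows WT far above CKO in stimulated cells.

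Zfp96 (Zscan12) rose in Treg alone and by a tested interaction. Treg had 2.83, 2.56, 2.62 and 2.78 in CKO and 1.76, 1.86, 1.94 and 1.67 in WT, a difference of 0.89 ± 0.12 (adjusted p = 5.53e-05 in limma). It differed by 0.03 ± 0.12 in unstimulated and -0.21 ± 0.12 in stimulated cells. The Treg effect exceeded the unstimulated one by 0.87 ± 0.17 (adjusted p = 0.02 in limma), the 1 call among 87 members against 0.390% of all genes in either direction. This call was lost in 5 of 16 fits that left out 1 array. Zfp94 and Zfp61, neighbours on chromosome 7, rose in Treg by 1.03 ± 0.16 and 0.76 ± 0.16, and Zfp97 on chromosome 17 rose by 0.88 ± 0.20. The other kept probe of Zfp61 gave 0.55 in Treg and was not called (adjusted p = 0.472 over all kept probes in limma). With the mean of its kept probes Zfp61 lost its call. The Zfp97 probe also matches accessions of Zfp960, so its values are uncertain, as are those of Zfp60, whose probe matches Zfp59.

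Zfp367 fell most in stimulated cells. They had -0.71, -0.77, -1.30 and -1.38 in CKO and 0.56, 0.67, 0.54 and 0.37 in WT, a difference of -1.58 ± 0.16 (adjusted p = 6.76e-07 in limma). WT cells rose on stimulation by 1.73 ± 0.16 and CKO cells by 0.71 ± 0.16, and the difference of these effects was -1.02 ± 0.22 (adjusted p = 0.0113). Zfp367 and Zfp52 were the 2 members called in this interaction, against 3.38% of all genes in either direction. The unstimulated fall of -0.56 ± 0.16 did not hold on further probes of the gene, which gave 0.26 and 0.42. In Treg the difference was -0.21 ± 0.16 (adjusted p = 0.634 in limma). Zfp296, a factor of embryonic stem cells, had -0.35, 0.06, -0.44 and -0.15 in CKO and 1.10, 1.20, 0.96 and 0.95 in WT stimulated cells, a fall of 1.27 on the log2 scale, and its interaction of -1.18 ± 0.47 had an adjusted p of 0.215.

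Along the annotated coordinates 12 clusters held at least 3 tested members no more than 1 Mb apart, with 68 of the 87 tested members. Members in a cluster were called higher 6 times and lower 5 times in unstimulated cells, 6 and 0 times in stimulated cells, and 9 and 1 times in Treg. The 19 members outside were called 4 and 2, 3 and 2, and 2 and 0 times. In Treg the medians were 0.24 inside and -0.03 outside clusters. The 123 non-member genes inside the same spans gave 11 higher and 12 lower in unstimulated cells and 12 and 11 in stimulated cells. In Treg they gave 4 and 0, with a median of 0.09. Over all genes 7.85%, 11.7% and 2.46% were higher and 10.8%, 12.3% and 1.81% lower in these 3 states. Of the stimulated fallers, 5 lay in the chromosome 13 span of Zfp96 and Zfp306, with Hist1h1b, Hist1h2ai, Hist1h2ak and Hist1h2bm among them. Slc27a5, Plaur and AK085372 rose in all 3 states. AK085372, in the span of Zfp53 and Zfp52, rose by 1.75 unstimulated, 1.62 stimulated and 1.84 in Treg. Of 56 neighbouring pairs within clusters, 36 had the same sign in Treg, 26 in unstimulated and 30 in stimulated cells. Across these pairs Pearson r was 0.22 in Treg, 0.13 in unstimulated and -0.002 in stimulated cells. A positive median, as in Treg, by itself raises the number of pairs with the same sign. Likeness of neighbours was not tested.

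The chromosome 17 cluster of Zfp160, Zfp54, Zfp51, Zfp53 and Zfp52 spans chr17:19204687-19743111 and held 3 risers in Treg, 2 in unstimulated and 1 in stimulated cells, and no faller, on the brightest probe of each gene. On the other probe of Zfp51 it held 2 risers in Treg and 1 faller in unstimulated cells. Over all genes 7.85%, 11.7% and 2.46% rose and 10.8%, 12.3% and 1.81% fell in unstimulated cells, stimulated cells and Treg. Over chromosome 17, 5, 2 and 5 of 18 members rose (27.8%, 11.1% and 27.8%) and none fell, so the stimulated share lay near that of all genes. On chromosome 13, 2, 3 and 2 of 14 rose and 2, 1 and 0 fell. On chromosome 7, 3, 4 and 4 of 55 rose (5.45%, 7.27% and 7.27%) and 5, 1 and 1 fell, with the shares of risers below those of all genes in both naive states. The largest rise of the cluster was Zfp53 in both naive states and Zfp52 in Treg. The chromosome 13 cluster of 6 at chr13:64532182-65037677 had 1 riser in each state, Zfp458, beside 5 members that were not called. On the brightest probes, the chromosome 7 cluster of 10 at chr7:26720941-27105593, with Zfp74, Zfp82 and Zfp566, had 3 fallers and no riser in unstimulated cells. It had no call in the other states on those probes. A further kept probe of Zfp27 gave 0.76 in Treg (adjusted p = 0.0219 over all kept probes in limma). A further one of Zfp146 gave -0.41 in stimulated cells (adjusted p = 0.0214). The further kept probes of Zfp74 gave -0.44, 0.18 and -0.03 in unstimulated cells, none called. The 3 clusters of chromosome 7 around Zfp36, Zfp444 and Zfp629 had no call in any state. The 13-gene cluster at chr7:20895154-22015427 had 12 tested members, with Zfp94 and Zfp61 higher in Treg and Zfp235 lower in unstimulated cells.

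Stimulation moved members in both directions. In CKO cells 24 rose and 24 fell, against 29.6% and 30.5% of all genes, and in WT cells 21 rose and 19 fell, against 31.5% and 30.3%. Zfp36 had 2.53, 2.64, 2.36 and 2.72 in stimulated and 4.34, 4.27, 4.36 and 5.05 in unstimulated CKO cells, and 2.09, 2.02, 2.06 and 2.26 in stimulated and 3.74, 4.55, 5.20 and 5.45 in unstimulated WT cells. It fell by 1.94 on the log2 scale in CKO and by 2.63 in WT cells. Zfp296 rose by 1.97 ± 0.34 in CKO and 3.15 ± 0.34 in WT, and Zfp428 by 1.99 ± 0.21 in CKO and 1.73 ± 0.21 in WT cells. Zfp583 was well above background on 3 of 4 stimulated and 0 of 4 unstimulated CKO arrays. Set against the dimmest measurable signal of each unstimulated array it was at least 2.27-fold higher in stimulated cells, but its signals lay below the brightest such limit over all arrays. With that common floor the difference was 0, and under normexp background correction the call was lost too.

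In Treg against unstimulated naive cells 14 members rose and 20 fell in CKO, against 11.6% and 16.5% of all genes, and 12 rose and 32 fell in WT, against 19.0% and 29.2%. Zfp96 rose by 1.43 ± 0.12 in CKO and 0.56 ± 0.12 in WT, and Zfp119 by 0.92 ± 0.24 in CKO and 1.07 ± 0.24 in WT. Zfp383 fell by 0.82 in CKO and by 1.64 in WT, a direction that turned under normexp background correction in WT. Treg arrays were dimmer and carry a different treatment tag in CKO, and their part in these counts was not tested.

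**Figure D4:**
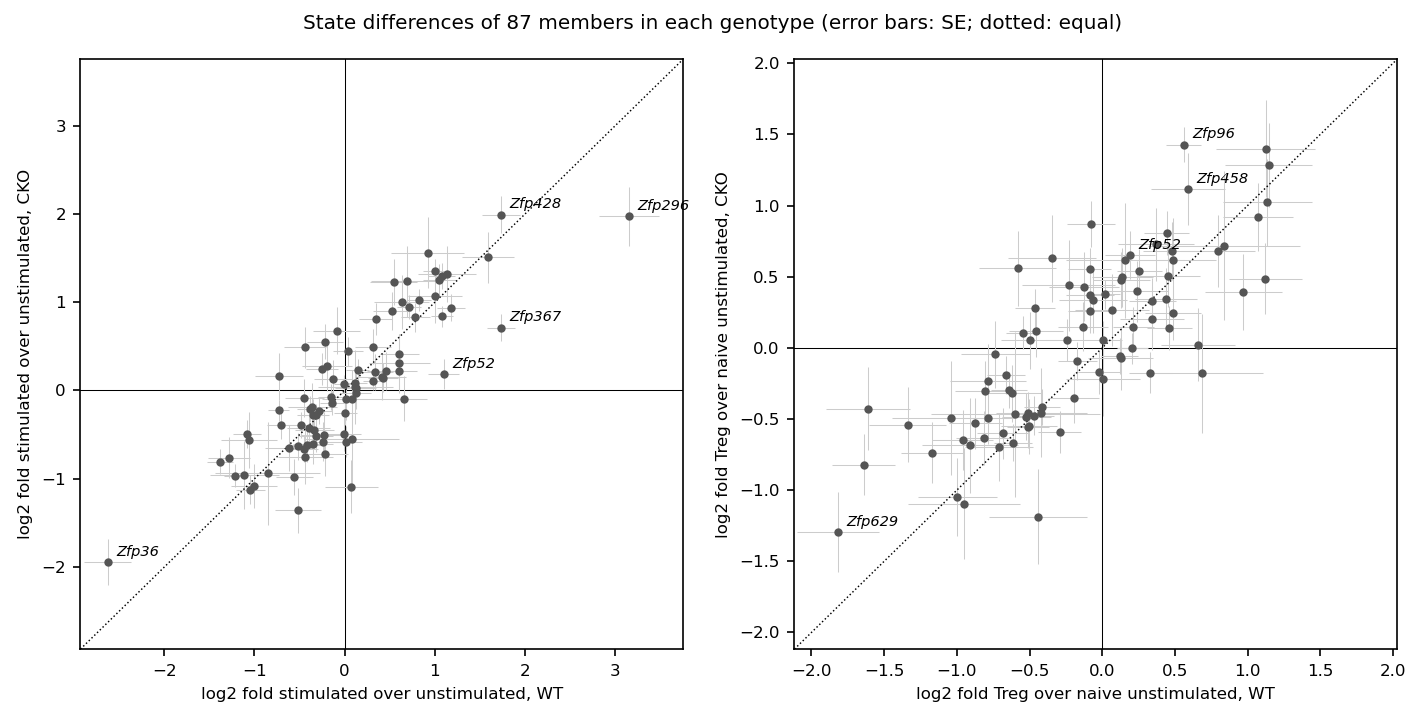
State differences of 87 members in CKO cells (y axes) against WT cells (x axes), for stimulated over unstimulated naive cells (left) and Treg over unstimulated naive cells (right), as log2 fold change with SE and a dotted line where both are equal. Zfp367 and Zfp52 lie below the line after stimulation, and Zfp96 lies above it in Treg.

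The cofactors of Trim28, histone methyltransferases, HP1 proteins, DNA methyltransferases and related genes, were counted from a list of 33 tested genes. The list holds Trim28 itself, the gene knocked out, so its fall in each state was set by the design. In unstimulated cells 5 rose (among them Trim24, Atf7ip, Morc3 and Atrx), against 7.85% of all genes, and 2 fell, Trim28 included, against 10.8%. In stimulated cells 4 rose, among them Setdb1, against 11.7% of all genes, and 12 fell, Trim28 included, against 12.3%. Those fallers held the H3K9 methyltransferase genes Suv39h1, Suv39h2 and Ehmt2 and the HP1 gene Cbx5. In Treg 3 rose (Trim24, Morc3 and Setdb1), against 2.46%, and Trim28 alone fell, against 1.81%. The list's medians were 0.07, -0.28 and 0.04.

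Same-numbered CKO and WT arrays of a state lay on one slide in all 12 pairs, and 6 slides held 4 arrays each. With slide as a block, members called in the 3 genotype comparisons numbered 21 unstimulated, 13 stimulated and 14 in Treg. Without it they numbered 17, 11 and 12, and Zfp606 in Treg was the 1 reported call lost. Counts over all genes with this block are not given here, and whether the gain is particular to members was not tested. Of the 40 genotype calls of members, 8 held under every setting tried apart from fits of single probes: Zfp53 in all 3 states, Zfp52 in unstimulated cells and Treg, Zfp110 in unstimulated cells, and the falls of Zfp367 and Zfp296 in stimulated cells. Another 8 were lost only under normexp background correction, which moved 31 of the 40 below the threshold. Of the calls with a further kept probe, all other probes had the same sign for 6 of 9 in unstimulated cells, 8 of 9 in stimulated cells and 8 of 8 in Treg. All of them were themselves called that way for 4 of 9, 5 of 9 and 5 of 8. Conversely, 5, 2 and 5 members that were not called had another kept probe that was.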

How the data were processed

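Signals were read with Agilent Feature Extraction 9.5.3.1, per the file headers, and the deposited intensity used was the authors' processed signal, background-subtracted and detrended within each array. Intensities were divided by the array's 75th percentile and taken to log2. A probe was kept when well above background on 3 arrays of any group, and the kept probe with the highest mean stood for its gene. limma 3.58.1 in R 4.3.3 fitted all 24 arrays in 6 groups over 16647 genes, with Benjamini-Hochberg adjustment over all of them and a threshold of 0.05. The fit was tested on simulated data. The authors' normalized intensities, a table on a linear scale with steps not stated, gave the same counts as quantile normalization. Members named were, by rule, up to 10 called rises and falls per genotype comparison with groups that do not overlap, up to 5 per state comparison and 3 per interaction, the extremes of each cluster, and a few chosen by function; other called members are named to complete a count. The members and lists were chosen with earlier results of these data known. Alternatives covered background, normalization, filters, blocks and left-out arrays. The genome build of the annotated coordinates is not given in the sources used here.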

Additional observations from a re-analysis of the deposited data

Results flagged for a closer look

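Zfp52, Zfp367 and Zfp96 had a genotype effect that differed between states in the fit. For Zfp52 the effect in stimulated cells minus that in unstimulated cells was -0.92, for Zfp367 it was -1.02, and for Zfp96 the effect in Treg minus that in unstimulated cells was 0.87.

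Among 186 groups of 4 arrays, 13 had an array far from the other 3, and chance gives about 1 in 20. In unstimulated CKO cells Zfp96 was 1.12 on replicate 2, against 1.32 to 1.33, and Zfp36 was 5.05 on replicate 4, against 4.27 to 4.36. In stimulated CKO cells Zfp715 was 0.72 on replicate 4, against 0.45 to 0.49. In CKO Treg, replicate 3 stood apart for Zfp306 (3.13), Zfp101 (-0.68) and Zfp143 (0.12), and replicate 4 for Zfp458, at -2.35 against -1.64 to -1.62. In stimulated WT cells replicate 1 stood apart for Zfp101 (-1.13) and Zfp499 (1.56), and replicate 3 for Zfp82 (0.0319) and Zfp143 (0.57). In WT Treg replicate 1 was low for Zfp169 (0.45, against 1.18 to 1.30) and Zfp260 (0.13).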

How the results depend on the processing

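Counts of called members under other settings stayed within 1.5 times of those reported in 82 of 108 cases, and in 66 of 88 cases that left out 1 array. Normexp background correction gave 3 members in unstimulated cells, 4 in stimulated cells and 2 in Treg. Over all 16647 genes it called 383, 1352 and 81 there. It gave 20 each for stimulation in CKO and WT (5951 and 6782 of all genes). In the stimulation and Treg interactions it gave 0 in both (70 and 7 of all genes). Fitting only the compared arrays gave 11 in unstimulated cells, 7 in Treg and 28 for Treg against naive WT cells. All genes called there numbered 1700, 365 and 6066. The stimulation and Treg interactions then gave 1 and 0 (491 and 56 of all genes). Array weights gave 40 in unstimulated and 30 in stimulated cells, where 6677 and 8300 of all 16647 genes were called. In the stimulation and Treg interactions they gave 12 and 6 (2772 and 1041 of all genes). Scaling on probes above background on all arrays gave 20 in stimulated cells, 18 higher and 2 lower (4022 of all genes called). For the stimulation and Treg interactions, quantile normalization and the authors' values each gave 1 and 2 (451 and 101 of all genes). No filter on dim probes gave 1 and 0 (295 and 54 of 27962 genes). A signal floor, chosen after seeing the data, gave 4 and 5 (893 and 241 of all genes). Leaving out 1 array gave 9 to 28 in unstimulated cells, 6 to 14 in stimulated cells and 9 to 12 in Treg. All genes called there ranged over 1390 to 4639, 2388 to 4701 and 570 to 706. Stimulation gave 38 to 49 in CKO and 34 to 40 in WT (9268 to 9889 and 9777 to 10124 genes). Treg against naive cells gave 20 to 33 in CKO and 31 to 48 in WT (3304 to 4965 and 6412 to 8527 genes). The stimulation interaction gave 1 to 3 and the Treg interaction 0 to 5 (360 to 769 and 52 to 357 genes). The extremes were without WT unstimulated replicate 3 (9) and replicate 4 (28), without WT stimulated replicate 2 (6), without CKO Treg replicate 3 (20 for Treg in CKO), and, for the Treg interaction, without CKO unstimulated replicate 2 (0) and WT unstimulated replicate 4 (5).

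Same-numbered CKO and WT arrays of a state shared a slide, but the labels name no shared animal, litter or day for a number, and the deviations of same-numbered arrays correlated at -0.31 to 0.45, so replicate number was kept as an alternative. The replicate block gave 23, 16 and 14 members in the 3 genotype comparisons, and 2 in each interaction. In the Treg interaction it called 101 of all 16647 genes. Its other counts over all genes are not given here, and whether its gain is particular to members was not tested.

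Directions turned for Zfp367 in unstimulated cells with the mean of its probes (0.0417) and on its other probes (0.26 and 0.42), and on other probes for Zfp119 in stimulated cells (-0.13), Zfp715 (-0.18) and Zfp74 (0.18) in unstimulated cells. Under normexp they turned for Treg against naive cells for Zfp14 (0.28), Zfp629 (0.72) and Zfp689 (0.17) in CKO, and for Zfp324 (0.95), Zfp383 (0.28), Zfp606 (0.37) and Zfp689 (0.12) in WT. The cause was not tested. Clusters numbered 12 at a gap of 1 Mb, 11 at 0.5 Mb and 9 at 2 Mb. Treg arrays had the lowest 75th percentile signals.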
